A study of Drosophila melanogaster with 35 samples.

Results

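The members described here are the gained 6mA regions of fly brain, stretches that the authors list as carrying more N6-methyladenine in DNA (6mA) in DMAD-knockout than in control brains, whose genotype the labels give as wild type. Of 5340 deposited regions, the 4966 on the 6 main chromosome arms (X, 2L, 2R, 3L, 3R and 4; build dm3) were kept. The other 374 lay on heterochromatic sequences outside those arms. The list rests on 1 knockout and 1 control 6mA library of Drosophila melanogaster brains. The labels used here give neither the strain, sex, age or stage of the flies nor the knockout allele, nor whether brains were pooled. An m6A antibody served for the precipitation, and fragments of 150 to 300 bp were selected and read in single-end runs of 50 cycles, per the labels. Brain RNA came from 2 knockout and 2 control libraries, deposited as 1 value per gene and genotype. BG3C2, a cultured neuronal line from fly larvae, served for comparison, with a list of gained 6mA windows after DMAD knockdown against control cells and 6 peak lists. The series has 35 samples in all.

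6mA is adenine with a methyl group on its exocyclic nitrogen, a common mark of bacterial DNA that has also been reported in animals. DMAD is the fly member of the Tet family, whose mammalian enzymes oxidise 5-methylcytosine, and the series' title assigns it the removal of 6mA. The title also names Polycomb, the chromatin complex that keeps developmental genes silent and in neurons holds genes of other fates off.

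The region list holds positions without heights, scores or read counts, so the size of the gain at each region and the depth of each library are unknown. With 1 library per genotype there is no spread between replicates and no test. Intervals at the 95% level stand beside counts, densities and ratios, and they cover counting error only. CG43444, which encodes DMAD, stood at 40.4 FPKM (an RNA level normalised to transcript length and library size) in libraries labelled knockout and 39.8 FPKM in control in the authors' deposited table. A gene-level value need not fall when the altered part of the gene is small, so the label could not be checked by it.

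The RNA carried the markers of brain. Of 7 neuronal markers, the 5 found in the table summed to 927 FPKM in libraries labelled knockout and 989 FPKM in control in the authors' deposited table. Photoreceptor markers summed to 4061 FPKM in libraries labelled knockout and 4517 FPKM in control in the authors' deposited table, so RNA of eye tissue was present in both. Glial markers summed to 1582 FPKM in libraries labelled knockout and 1553 FPKM in control in the authors' deposited table. Fat body markers (4 of 5 found) summed to 378 FPKM in libraries labelled knockout and 1024 FPKM in control in the authors' deposited table. The yolk protein genes Yp1 and Yp2 made up most of both sums. In the authors' deposited table they stood at 225 and 142 FPKM in libraries labelled knockout and 624 and 383 FPKM in control. Muscle, haemocyte and gut markers summed to 342, 617 and 112 FPKM in libraries labelled knockout and to 298, 830 and 37.2 FPKM in control in the authors' deposited table. The haemocyte sum rested mostly on 1 gene, at 613 FPKM in libraries labelled knockout and 826 FPKM in control in the authors' deposited table. The gut protease gene Jon25Biii was listed at 0 in control. Germline and tracheal markers stayed at or below 10.1 FPKM in sum in both genotypes in the authors' deposited table. Whether these tissues contributed DNA to the 6mA libraries was not tested.

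Gained regions were short and scattered. The narrowest was 190 bp wide, the quartiles were 416, 497.5 and 591 bp, and the widest was 2096 bp. Together they covered 2567 kb, which is 2.13% of the 6 arms. The median gap between neighbours was 13603.5 bp, and 346 of 4960 gaps were under 1 kb. The 5 widest regions included 3 on the X. The widest lay at X, 8188057 to 8190152, in the merged locus of nAcRalpha-7E, a nicotinic acetylcholine receptor subunit gene, and CG43695. The next were 1526 bp in gfA (X, 19222206 to 19223731), 1502 bp in crp (2L, 16264044 to 16265545), 1497 bp in kek5 (X, 19349165 to 19350661) and 1449 bp between loci (3R, 24873506 to 24874954), 987 bp from CG11837. The gene crp encodes a basic helix-loop-helix factor and kek5 a leucine-rich repeat membrane protein.

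The X chromosome held more gained 6mA per length than any other arm. It carried 1345 regions, 27.1% of all on 18.6% of the sequence, or 60.0 per Mb (56.8 to 63.3). Arms 2L, 2R, 3L and 3R held 35.8, 37.0, 37.0 and 38.8 per Mb. The small arm 4 held 24 regions, or 18.1 per Mb. The density on the X was 1.62 times (1.52 to 1.73) that of the autosomal arms. In BG3C2 gained windows this ratio was 1.19 (1.12 to 1.27), with 57.0 windows per Mb on the X and 47.8 on autosomal arms, and 3R at 54.8 lay close to the X.

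**Figure D1:**
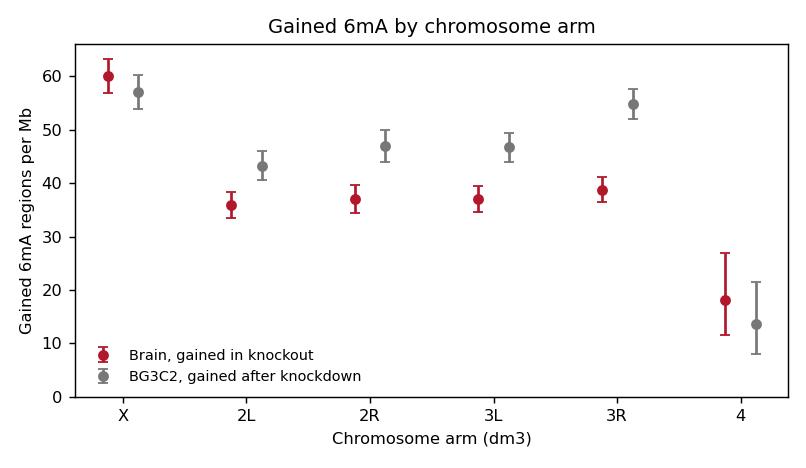
Gained 6mA regions per Mb on each chromosome arm for brain (knockout against control) and BG3C2 (knockdown against control); points are densities and bars 95% Poisson intervals, which cover counting error only. The brain X stands at 60.0 per Mb with the large autosomal arms at 35.8 to 38.8, and arm 4 is lowest in both lists.

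The surplus on the X was found both inside and outside genes. Inside gene loci the X to autosome ratio was 1.65 (1.54 to 1.78), and between loci 1.52 (1.34 to 1.72). Within 1 kb of a locus end, inside the locus, it was 1.87 (1.55 to 2.26), and more than 5 kb from an end 1.50 (1.36 to 1.65). Brain regions that overlapped no BG3C2 gained window gave 1.74 (1.63 to 1.87), whereas the 835 that did overlap one gave 1.08 (0.91 to 1.29). Of X regions, 12.3% (166 of 1345) overlapped a BG3C2 window, against 18.5% (669 of 3621) on autosomal arms. X regions were slightly narrower, with a median of 483 bp on the X and 503 bp on autosomal arms. X regions also lay closer together, with a median gap of 9359 bp against 15879 bp on autosomal arms.

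Because the sex of the flies is not given, RNA that differs between the sexes was read beside the X result. The yolk protein genes, which the female fat body expresses, had low values in libraries labelled knockout, and Yp1 and Yp2 were called lower. In the authors' deposited table, Yp1 stood at 225 FPKM in libraries labelled knockout and 624 FPKM in control (Cuffdiff q = 0.0248) and Yp2 at 142 FPKM in libraries labelled knockout and 383 FPKM in control (q = 0.0103). Yp3 stood at 306 FPKM in libraries labelled knockout and 649 FPKM in control (q = 0.252) in the authors' deposited table. The RNAs roX1 and roX2, which belong to the male dosage compensation complex, stood at 330 and 92.0 FPKM in libraries labelled knockout and 420 and 164 FPKM in control in the authors' deposited table (q = 1.00 and 0.592). The gene fit, which fat tissue of the female head expresses, was called lower and stood at 11.8 FPKM in libraries labelled knockout and 82.0 FPKM in control in the authors' deposited table (q = 0.0394). The gene msl-2, for a protein of the male dosage compensation complex, stood at 21.2 FPKM in libraries labelled knockout and 19.8 FPKM in control in the authors' deposited table (q = 1.00). RNAs typical of females and of males were thus found in both genotypes. Of these 7 genes, 3 (Yp1, Yp2 and fit) were called lower and 4 (Yp3, roX1, roX2 and msl-2) were not called. Over all tested genes 0.375% were called lower. X-linked genes as a whole had a median log2 fold change of -0.02 (1371 genes) in the authors' deposited table. The part of the flies' sex in the X result was not tested.

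On a scale of 100 kb, gained regions formed a few dense patches. The 1200 windows of that size had a median of 4 regions. Only 48 windows were empty, and 56 held 10 or more. Of those 56, 31 were on the X, where they made up 13.8% of windows. The densest window (X, 3000001 to 3100000) held 17 regions, 8 of them in the merged locus of kirre and rst and 5 in N. N encodes the receptor Notch, and kirre and rst encode immunoglobulin-type adhesion proteins. In that window 7 regions overlapped a BG3C2 gained window. The next windows held 16 regions each: 2R, 13200001 to 13300000, where 14 lay in the locus of mbl (muscleblind, a splicing regulator); X, 8600001 to 8700000, where 8 lay in the homeobox gene Lim1; and X, 9600001 to 9700000, where the zinc finger gene Sp1 held 2. The last of the 5 (X, 5100001 to 5200000) held 15, with 6 in the locus of rg (rugose, an anchor of protein kinase A).

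Gene loci were taken from the authors' RNA table, in which overlapping genes share 1 merged locus. The 14789 genes on the 6 arms fell into 10833 such loci, none overlapping another. Of these, 8361 held 1 gene and 2472 held several, with at most 24. A region was assigned to the locus that held its midpoint. By this rule 71.5% of regions (70.2 to 72.7) lay in a locus, and loci made up 69.4% of the arms. Density was 42.5 per Mb (41.1 to 44.0) inside loci and 38.4 (36.5 to 40.5) between them. Regions that touched a locus were a little wider than the rest, with medians of 505 and 483 bp.

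Long gene loci, many of them merged from several genes, carried most of the gained 6mA. A gained region was found in 1631 loci (15.1%). Of these, 962 held 1 region, 514 held 2 to 4, 122 held 5 to 9, and 33 held 10 or more. The median length was 18439 bp for loci with a region and 2136 bp for loci without. In 5 equal groups ordered from short to long, 1.29%, 2.68%, 3.97%, 12.0% and 55.4% of loci held a region. A longer locus has more room for a region, so the density was read beside the share. It stood at 19.0, 18.3, 15.7, 24.1 and 50.4 regions per Mb in these groups, and thus was similar in the 3 shorter groups and highest in the longest. The longest group, with a shortest locus of 8.47 kb, held 73.4% of locus sequence and 87.0% of the regions in loci. Of 624 loci of at least 30 kb, 531 (85.1%) held a region. Of 71 loci of at least 100 kb, 70 did, with a median of 7 and a maximum of 33. BG3C2 gained windows showed densities of 19.0, 15.2, 15.3, 25.8 and 61.3 per Mb in the same groups.

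**Figure D2:**
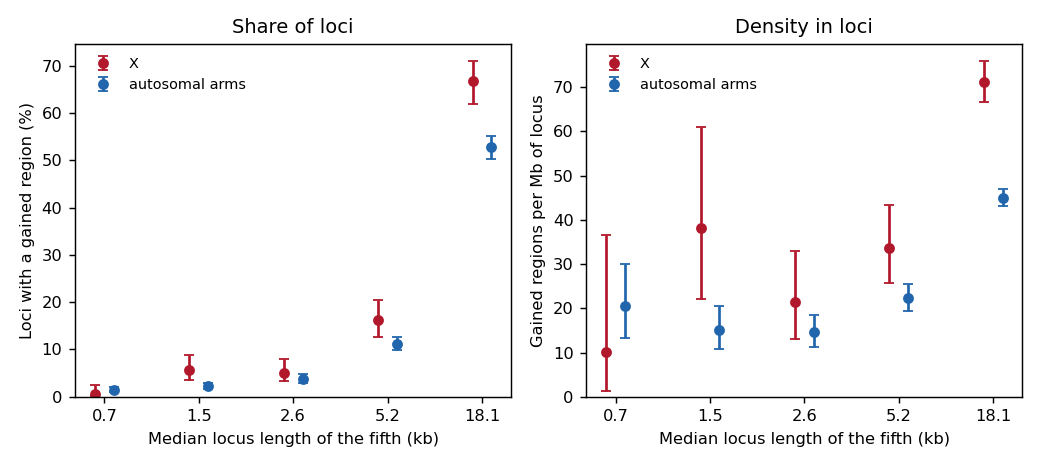
Share of gene loci with a gained region (left) and gained regions per Mb of locus (right) in 5 equal groups of locus length, for the X and the autosomal arms; bars are 95% Wilson and Poisson intervals, which cover counting error only. In the longest group the X stands at 66.7% and 71.3 per Mb, against 52.7% and 45.0 per Mb on autosomal arms.

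On the X and on autosomal arms alike, density was highest in the longest group, without a steady rise over the shorter ones. From short to long the X held 10.1 (on 2 regions), 38.1, 21.4, 33.7 and 71.3 per Mb. Autosomal arms held 20.4, 15.1, 14.6, 22.3 and 45.0. In the longest group, 66.7% of X loci held a region, against 52.7% of autosomal loci, at 71.3 (66.7 to 76.0) and 45.0 (43.1 to 46.9) per Mb. In the longest group 1-gene loci held 1250 regions, or 52.5 per Mb (49.7 to 55.5). Loci of several genes held 1838, or 49.1 per Mb (46.9 to 51.4).

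The loci with the most regions were among the longest in the table. The merged locus of kirre, rst, the eye colour gene w and 21 other genes (X, 2633122 to 3028565, 395 kb) held 33. The locus of mamo, which encodes a zinc finger factor, and CG11068 (X, 13740216 to 13879887) held 23. The loci of mbl (2R, 13104054 to 13266881) and of Ten-a, a teneurin of the synapse (X, 12022928 to 12229249), held 21 each. The locus of rdgA, the diacylglycerol kinase of photoreceptors (X, 8801101 to 8948608), held 20. The loci of Gld2 with SKIP (3R, 17959552 to 18121848) and of rg (X, 4979866 to 5145183) held 18 each. Then came nmo, which encodes the kinase Nemo (3L, 7972146 to 8047247), shep, which encodes an RNA-binding protein (3L, 5148921 to 5271044), and a 13-gene locus that includes the T-box gene bi (X, 4281829 to 4505418), with 16 each. Of these 10 loci, 6 were on the X. Together they held 202 regions, only 5.69% of those in loci. The most compact was nmo, a single gene of 75.1 kb with 213 regions per Mb.

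Ranked by density among loci with at least 3 regions, short single genes led. The first was tow (3L, 6935956 to 6942413), with 3 regions in 6.46 kb, at 6937371 to 6938056, 6938165 to 6938722 and 6941337 to 6942086. The gene put, for a type II receptor of the activin and BMP pathways (3R, 10444752 to 10451425), held 3 in 6.67 kb. The troponin T gene up (X, 13487507 to 13496536) held 4 in 9.03 kb. The homeobox gene oc, orthodenticle, which patterns the fly head and brain (X, 8524192 to 8544714), held 8 in 20.5 kb. Those 8 were spread over the whole gene, the first 2.36 kb from the lower end and the last 0.175 kb from the upper, and only the last overlapped a BG3C2 window. The other 6 were CG43689 and Fim (6 each), wah and Notum (3 each), and CG2781 and CG12065 (4 each). Fim encodes the actin-bundling protein fimbrin, and Notum an enzyme that inactivates Wnt ligands. Of the 10, 5 were on the X. The shorter of these loci enter the ranking with only 3 or 4 regions, so the counts behind their densities are small.

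The 5 longest loci without a region are the exceptions. They were the 5-gene locus of klar, which positions nuclei (3L, 434089 to 540589, 107 kb), the histone H4 locus (2L, 21458852 to 21541127, 82.3 kb), Nipped-A, which encodes a large subunit of histone acetyltransferase complexes (2R, 1065470 to 1138527, 73.1 kb), and the loci of cenG1A (2L, 13835567 to 13898714, 63.1 kb) and Ccn (3L, 17683115 to 17743688, 60.6 kb). The histone locus consists of near-identical copies, and how the authors treated reads that match several places is not given in the sources used here.

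Within a locus, gained regions lay more densely at the ends than in the interior once loci of similar length were compared. In loci of 30 to 100 kb, the interior held 51.1 regions per Mb (48.4 to 53.9), the first and last 1 kb held 78.7 (63.0 to 97.0), and the 1 kb beyond the ends 38.0 (27.4 to 51.3). In loci of 10 to 30 kb the values were 41.7 in the interior, 61.0 at the ends and 30.1 outside. In loci of 4 to 10 kb they were 22.1 in the interior, 33.6 at the ends and 22.8 outside. The ratio of interior to ends was 0.66 (0.53 to 0.82) for 4 to 10 kb, 0.68 (0.57 to 0.82) for 10 to 30 kb and 0.65 (0.52 to 0.82) for 30 to 100 kb. For loci of at least 100 kb it was 0.70 (0.40 to 1.32), on 13 regions at the ends. Pooled over all 3970 loci of at least 4 kb the ratio was 0.93 (0.84 to 1.04), and the classes entered it unequally. Loci of 4 to 10 kb supplied 4.17 of 7.94 Mb of ends but 8.81 of 63.7 Mb of interior. BG3C2 gained windows gave ratios of 0.66, 0.75, 0.73 and 0.87 in these length classes, in order of length.

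**Figure D3:**
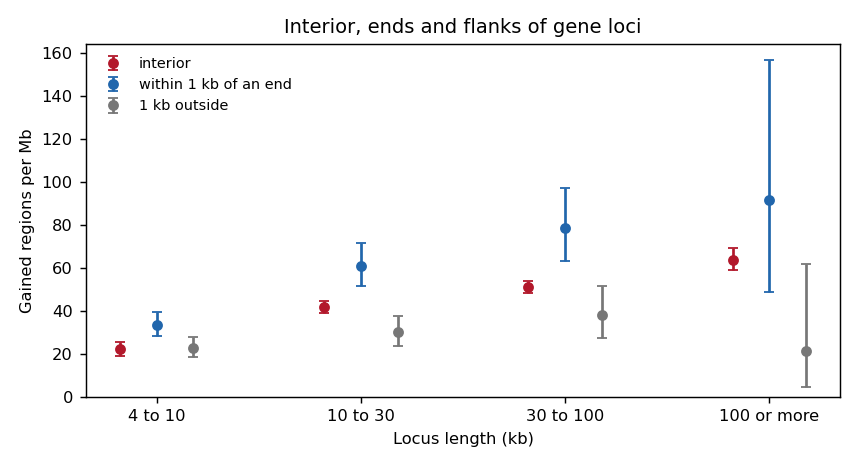
Gained brain 6mA regions per Mb in the interior, within 1 kb of an end and in the 1 kb outside gene loci, by locus length; bars are 95% Poisson intervals, which cover counting error only. In each of the 4 length classes the ends lie above the interior, for example 78.7 against 51.1 per Mb in loci of 30 to 100 kb.

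The locus column has no strand, so a start of transcription cannot be told from an end of transcription. Cut into 10 equal parts from the lower coordinate, loci of at least 4 kb held 11.8% of their regions in the first part and 12.2% in the last. The 8 parts between held 8.77% to 10.4% each. In 1-gene loci the first and last parts held 13.4% and 12.6%. Outside loci, the 0.5 kb nearest to a locus was poor in gained 6mA, with 22.6 per Mb (19.0 to 26.6), while the next 0.5 kb held 40.2 (33.6 to 47.7) and sequence more than 20 kb away 37.8 (30.6 to 46.3). The 1 kb outside a locus can fall in a neighbouring locus, whereas the distance classes outside leave loci out.

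Over all loci, those with a gene expressed in control brain held more gained 6mA. Of the 5 length groups, however, the interval of the ratio lay above 1 in the middle group alone. Loci were grouped by the control FPKM in the authors' deposited table. A locus of several genes was given the highest value among its genes, so its other genes can have less RNA. Loci listed at 0 held 22.6 regions per Mb (17.7 to 28.4), those above 0 to 1 FPKM held 31.3, those at 1 to 10 FPKM 39.2, those at 10 to 100 FPKM 45.7 and those above 100 FPKM 43.9 (40.0 to 48.1). Density in loci over 1 FPKM was 1.57 times (1.38 to 1.79) that in loci up to 1 FPKM. In the 2 shortest length groups the ratio was 0.88 (0.36 to 2.00) and 1.04 (0.60 to 1.83), on 28 and 59 regions. Within the longest group it was 1.13 (0.97 to 1.32), with 46.8, 44.7, 52.7, 50.9 and 48.4 per Mb from the lowest to the highest group. In the group of middle length it was 1.93 (1.08 to 3.70), on 76 regions over 1 FPKM and 14 up to 1 FPKM. In the next longer group it was 1.34 (0.91 to 2.04). Among 1-gene loci of the longest group the ratio was 1.15 (0.95 to 1.42). In the longest loci the density of gained 6mA therefore varied little with this highest RNA level.

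Most lists of neuronal genes held gained 6mA more densely than all loci, though no interval of the 24 lists lay wholly above the longest group. Of 17 genes for voltage-gated channels, which set neuronal excitability, 15 held a region, at 64.9 per Mb (48.3 to 85.3), against 42.5 over all loci and 50.4 in the longest group. They included the calcium channel gene Ca-alpha1T with 9 regions and the potassium channel genes Sh and SK with 9 and 6. These 3 are on the X, as are 7 of the 17. Of 18 learning and memory genes 10 held a region, at 67.8 per Mb (49.1 to 91.3). They included dnc, the cAMP phosphodiesterase gene, with 15, the synaptic scaffold gene dlg1 with 7 in 40.1 kb, and rad with 5. These 3 are X-linked as well, as are 8 of the 18 members. Of 16 genes for neuronal RNA-binding proteins 14 held a region, at 58.0 per Mb (45.5 to 72.8), with 16 in bru-3, 11 in A2bp1 and 11 in aret, which regulate splicing or translation. Only 3 of those 16 are on the X.

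Axon guidance and adhesion genes had a region in 36 of 50 members, at 54.2 per Mb (46.3 to 63.1). The genes kirre and rst share the same 33, and Ten-a had 21. Synaptic vesicle and active zone genes had one in 9 of 19, at 45.9 per Mb (31.0 to 65.5), led by the SNARE gene Snap25 with 14. Neurotransmitter receptor genes had one in 11 of 21, at 36.4 per Mb (21.9 to 56.8), with 3 each in the GABA receptor gene Rdl, GluClalpha and 5-HT1A. The receptors therefore lay below the average of all loci and the channels above it, and the intervals of the 2 lists overlapped.

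In the 5 lists of developmental regulators 57.1% to 80% of genes held a region, where genes that share a locus each count. In the longest group 55.4% of distinct loci held one. In density 3 of the lists lay above all loci and 2 slightly below. Nuclear receptor and ecdysone genes had a region in 11 of 18, at 64.2 per Mb (46.3 to 86.8), with 8 in Eip75B and 7 each in Eip74EF and br, which respond to the steroid ecdysone. Hox genes and other classical Polycomb targets had one in 18 of 31, at 56.2 per Mb (40.8 to 75.5). Among them were the Hox genes Antp with 7 and Ubx with 5, and the homeobox gene ct with 6. The authors' deposited table gave Antp 0.200 FPKM in libraries labelled knockout and 0.368 FPKM in control. It gave Ubx 0.200 FPKM in libraries labelled knockout and 0.254 FPKM in control. These 2 genes thus had almost no RNA in either genotype, while their long loci carried gained regions. The Antp locus holds 2 genes, and the RNA of the other is not given here. Neuroblast and temporal factor genes had a region in 16 of 20, at 50.1 per Mb, with 7 in brat, a translational repressor. Notch and Wnt genes had one in 12 of 21, at 41.3 per Mb. In N the 5 regions lay at X, 3032938 to 3033547, 3038719 to 3039400, 3050913 to 3051363, 3054017 to 3054724 and 3055856 to 3056357. EGF and FGF genes had one in 13 of 17, at 41.6 per Mb, so that this list and that of Notch and Wnt genes lay just below all loci at 42.5. Circadian genes had one in 4 of 14, at 46.0 per Mb, with 6 in Pdp1, a bZIP factor of the clock.

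Among genes of the chromatin machinery, no difference between the 2 opposing groups was detectable. Trithorax and COMPASS genes, which maintain active states, had a region in 7 of 17, at 57.9 per Mb (30.8 to 99.0), and Polycomb group genes in 7 of 19, at 36.5 (19.4 to 62.4). Each list held 13 regions, and the intervals overlap widely. The 8-gene locus of the chromodomain helicase gene kis had 5. The gene wds itself, which encodes the fly WDR5 of COMPASS complexes (X, 2480010 to 2482250), had 2 regions in only 2.24 kb, at 2480061 to 2480566 and 2481700 to 2482065. The first of them overlapped a BG3C2 gained window. The neighbouring Polycomb genes Su(z)2 and Psc had 2 each. In the DMAD gene CG43444 (3L, 2786206 to 2879158, 93.0 kb) 3 regions were listed, at 2794031 to 2794787, 2826527 to 2827302 and 2842314 to 2842835, or 32.3 per Mb. None of them overlapped any of the 16 BG3C2 windows with a midpoint in that locus, at 172 per Mb.

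Most members of the lists of compact housekeeping genes held no gained region, as did most loci of like length. Cytosolic ribosomal protein genes had a region in 6 of 91, at 25.8 per Mb (9.46 to 56.1), among them RpL24, RpL26 and RpS26 with 1 each. Mitochondrial ribosomal protein genes had one in 1 of 72, at 5.67 per Mb (0.14 to 31.6), and proteasome genes in 3 of 31, at 20.0 per Mb. The median locus length of these lists was 1.41, 1.76 and 1.89 kb. All 3 medians fall in the second shortest of the 5 length groups, where 2.68% of loci held a region, at 18.3 per Mb. The share was 6.59% (3.06 to 13.6) for cytosolic ribosomal, 1.39% (0.25 to 7.46) for mitochondrial ribosomal and 9.68% (3.35 to 24.9) for proteasome genes. The intervals of the cytosolic ribosomal and proteasome shares lay above 2.68%, whereas the density intervals of all 3 lists include 18.3. The 3 proteasome genes with a region, Rpn9, Prosbeta2 and Rpt1, lay in merged loci of 29.5, 14.1 and 33.5 kb. Cytochrome P450 genes had a region in 12 of 83 (14.5%, 8.47 to 23.6), at 27.3 per Mb (17.5 to 40.6), below all loci. Their median locus of 2.35 kb falls in the middle length group, where 3.97% of loci held a region, at 15.7 per Mb. Both P450 values lay above those of that group. Some P450 loci are long, such as the merged locus of Cyp6d5 with 8 regions in 67.2 kb. Small RNA pathway genes had one in 3 of 16, at 22.7 per Mb, and genes of the 6mA and m6A machinery in 1 of 11, which is CG43444, at 22.5 per Mb. Odorant-binding protein genes had one in 3 of 49, yet their density of 57.2 per Mb (29.5 to 99.8) was above that of all loci, with 9 of their 12 regions in the 113 kb merged locus of Obp85a. Of the 24 lists, 11 lay above all loci in density.

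**Figure D4:**
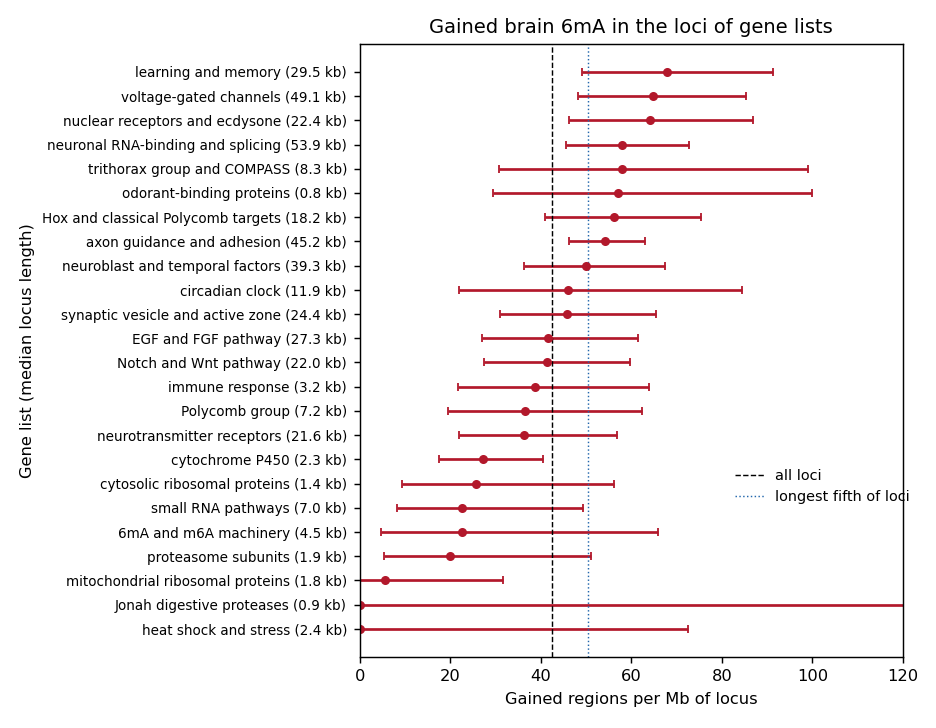
Gained brain 6mA regions per Mb in the loci of 24 gene lists, with the median locus length of each list in brackets; bars are 95% Poisson intervals, which cover counting error only, and that of the Jonah list runs past the axis. The dashed line marks all loci at 42.5 per Mb and the dotted line the longest group of loci at 50.4.

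No region lay in the short loci of heat shock or Jonah protease genes, whereas immune genes held regions at a density whose interval includes that of all loci. None of 21 heat shock and stress genes held a region, which allows a share of up to 14.3%. Their loci add up to only 0.0508 Mb, which allows up to 72.6 per Mb, so a lower density than in all loci was not detectable. The Hsp70 genes in that list are near-identical copies, so reads from them cannot be placed with certainty. The 16 Jonah protease genes likewise held 0 regions, which allows up to 18.8% and up to 237 per Mb. Of 32 immune genes 6 held a region (18.8%), at 38.7 per Mb (21.7 to 63.9). Over all genes on the 6 arms, where genes that share a locus each count, 3165 of 14789 held one. There were 4 in the 28.1 kb locus of PGRP-LB, a peptidoglycan-degrading receptor, and 4 in the 70.0 kb merged locus of the peptide gene Mtk. None of the 9 immune genes called higher in the authors' deposited table held a region. For the 10 heat shock genes called lower this follows from their list, in which no gene held one. The immune list had 31 tested genes and the heat shock list 18. Over all tested genes 0.387% were called higher and 0.375% lower. Over all tested genes on the arms, 1815 of 8211 held a region. The median locus of the immune list was 3.23 kb and that of the heat shock list 2.43 kb. Both fall in the middle length group, where 3.97% of loci held a region. In the authors' deposited table Mtk, which was not called, stood at 645 FPKM in libraries labelled knockout and 147 FPKM in control.

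RNA calls were rare among genes with gained 6mA. The authors' deposited table called 0.762% of all tested genes at q below 0.05, 0.387% higher and 0.375% lower in libraries labelled knockout. Of 1815 tested genes with a region it called 3 higher and 2 lower (0.275%, interval 0.118 to 0.643). Of 6396 without a region on the 6 arms it called 29 higher and 29 lower (0.907%, 0.702 to 1.17). Called genes lay in short loci, with a median of 1888 bp against 4569 bp over all tested genes on the arms. In the longest group, where both kinds of gene are common, the authors' deposited table called 5 of 1430 genes with a region (0.350%, 0.149 to 0.816) and 6 of 1171 without (0.512%, 0.235 to 1.11). At an unadjusted p below 0.05, which 3.51% of all tested genes passed, the shares were 1.38% with a region and 4.13% without, and in the longest group 1.26% with and 1.79% without. No difference between genes in long loci with and without gained 6mA was thus detectable in these counts.

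The 5 called genes with a region were different kinds of gene. The authors' deposited table gave Hr38, the nuclear receptor gene that neuronal activity induces, 21.1 FPKM in libraries labelled knockout and 9.52 FPKM in control (log2 fold change 1.15, Cuffdiff q = 0.0103). It had 2 regions, at 2L, 20682283 to 20682723, with its midpoint 0.135 kb inside the lower end of the locus, and 20701820 to 20702192. The authors' deposited table gave trpl, a cation channel gene of photoreceptors, 124 FPKM in libraries labelled knockout and 270 FPKM in control (-1.12, q = 0.0103), with 1 region at 2R, 5642530 to 5643121 that overlapped a BG3C2 window. The gene trpl is itself 1 of the 5 photoreceptor markers, whose median was 150 FPKM in libraries labelled knockout and 270 FPKM in control in the authors' deposited table. The sum of these markers, given above, rests mostly on its highest gene, at 3376 FPKM in libraries labelled knockout and 3597 FPKM in control in the authors' deposited table. The part of photoreceptor RNA in the value of trpl was not tested. CG32206 stood at 27.8 FPKM in libraries labelled knockout and 14.0 FPKM in control (0.99, q = 0.0103) in the authors' deposited table and had 1 region, at 3L, 19355069 to 19355467. CG6040 stood at 28.4 FPKM in libraries labelled knockout and 15.4 FPKM in control (0.88, q = 0.0290) in the authors' deposited table, with regions at 3R, 14922711 to 14923311, 0.053 kb from its lower end by midpoint, and 14944436 to 14944871. CG30497 stood at 26.0 FPKM in libraries labelled knockout and 47.4 FPKM in control (-0.87, q = 0.0290) in the authors' deposited table and had 1 region, at 2R, 3646442 to 3646888. The region of CG32206 and the first of CG6040 also overlapped a BG3C2 window. All 5 loci belonged to the longest group. Only 2 of the 5 genes were alone in their locus, so for the others a region can lie in another gene of the merged locus.

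Across all tested genes the RNA of marked genes lay very slightly lower. The median log2 fold change in the authors' deposited table was -0.04 with a region and 0.00 without, and 58.8% of values with a region and 49.1% without were below 0. By number of regions it was -0.03 for 1, -0.05 for 2 to 4, -0.07 for 5 to 9 and -0.07 for 10 or more. Median locus length in these groups was 12371, 33958, 67471 and 147508 bp. In the longest group the medians were -0.05 with a region and -0.02 without. Within that group, loci up to 15 kb had -0.03 with a region and -0.03 without, and loci of 15 to 30 kb -0.04 with a region and -0.02 without. Loci of 30 to 50 kb had -0.05 with a region and -0.04 without, and loci of 50 kb or more -0.07 with a region and -0.08 without, the last on only 13 genes. The quartiles with a region were -0.16 and 0.09, so the shift is small beside the spread over genes, and the part of locus length in it was not tested beyond these classes.

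Of brain regions, 16.8% (835 of 4966) overlapped a BG3C2 gained window, and the density inside these windows was about as high against that outside in each place of the locus. Inside BG3C2 gained windows, brain regions had a density of 113 per Mb (105 to 122), against 37.5 (36.4 to 38.7) outside, a ratio of 3.02 (2.78 to 3.28). The ratio was 2.86 (2.57 to 3.17) in locus interiors, 3.48 (2.62 to 4.56) at locus ends and 3.09 (2.64 to 3.61) between loci. Ends here are locus sequence within 1 kb of an end in loci of every length, with 581 regions. The positions in the locus given above used loci of at least 4 kb. Of the loci with a brain region, 959 also held a BG3C2 window, which is 58.8% of the 1631 brain loci and 59.2% of the 1621 BG3C2 loci. Over all 10833 loci, 1621 held a BG3C2 window. In the longest group, which held 73.6% of the brain loci, 56.1% of loci held one. The part of locus length in this sharing was not tested. The merged kirre and rst locus had the most regions on BG3C2 windows, 10 of 33. It was followed by Snoo, which encodes a TGF-beta co-repressor, with 7 of 13, luna, a Krüppel-like factor gene, with 6 of 15, dnc with 5 of 15 and pum, the translational repressor Pumilio, with 5 of 10.

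Chromatin peaks mapped in BG3C2 were read by the same places in the locus, again over loci of every length. DMAD peaks held fewer brain regions inside than outside in locus interiors, at a ratio of 0.65 (0.57 to 0.75), but not at locus ends, at 0.97 (0.79 to 1.19), and gave 0.87 (0.62 to 1.17) between loci. Peaks of Pc, the chromodomain subunit of Polycomb, gave 0.60 (0.51 to 0.70) in interiors, 1.14 (0.93 to 1.399) at ends and 0.81 (0.64 to 1.01) between loci. RNA polymerase II peaks gave 0.57 (0.49 to 0.66) in interiors, 1.05 (0.87 to 1.26) at ends and 0.53 (0.34 to 0.79) between loci. For these 3 lists the intervals of interiors and ends did not overlap. The part of locus length in this contrast was not tested. Peaks of Wds, by contrast, were above 1 in interiors, at 1.34 (1.09 to 1.62), and at ends, at 1.53 (1.22 to 1.89), with 0.92 (0.65 to 1.27) between loci. H3K4me3, the mark of active promoters, gave 0.61 (0.49 to 0.75) in interiors, 0.86 (0.71 to 1.03) at ends and 0.36 (0.18 to 0.65) between loci. H3K27ac, the mark of active enhancers and promoters, gave 0.72 (0.64 to 0.82) in interiors, 0.77 (0.64 to 0.92) at ends and 1.15 (0.90 to 1.45) between loci. No sample among those labelled matches the H3K27ac and RNA polymerase II lists, so their libraries are not described here. On none of the 6 peak lists lay 76.6% of brain regions. These peaks come from another cell source, and the same proteins were not mapped in brain in the lists used here.

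**Figure D5:**
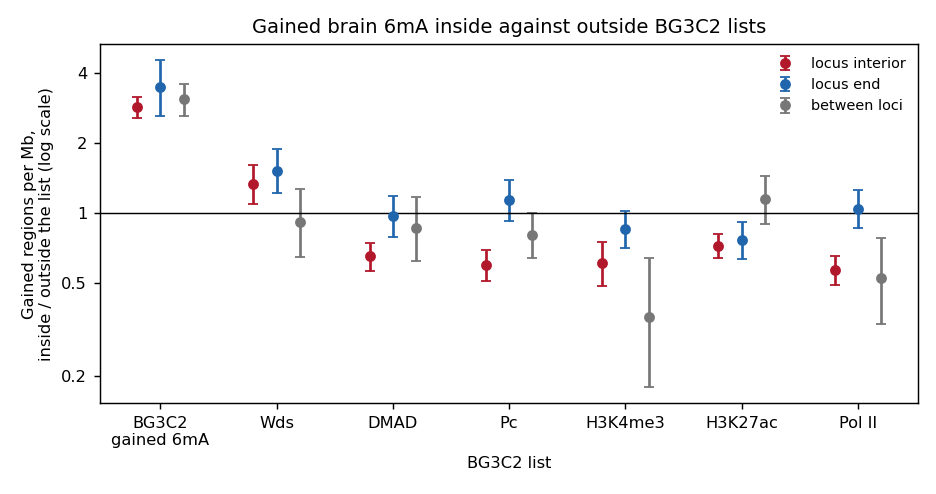
Ratio of gained brain 6mA regions per Mb inside against outside 7 BG3C2 lists (log axis). Places are locus interiors, locus sequence within 1 kb of an end (loci of every length) and sequence between loci. Bars are 95% intervals of the ratio, which cover counting error only. BG3C2 gained 6mA stands near 3 in every place, and Wds is above 1 at ends (1.53) and in interiors (1.34).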

How the data were processed

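Gained 6mA regions were used as deposited by the authors, as positions only. The submitters' processing notes name build dm3, the aligners Bowtie 0.12.9 and TopHat2 2.0.8, the peak caller MACS 1.4.2, Cuffdiff 2.2.1 for RNA, and also CASAVA 1.4 and bedtools. Those notes list tools without settings, and the criterion for calling a gain is not given in the sources used here. Brain RNA values are FPKM, log2 fold change, p-value and q-value as deposited by the authors in a Cuffdiff gene table, with 1 FPKM per gene and genotype. The score of H3K4me3 peaks, deposited by the authors, ranked peaks in 1 alternative.

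Lists were read as counting from 0 (BG3C2 windows from 1), and arm length was the largest coordinate in any file. Densities carry exact Poisson intervals, shares Wilson intervals and ratios exact conditional binomial intervals at 95%. Called means q below 0.05, status OK and the authors' flag. No test over samples was possible for 6mA, since there is 1 library per genotype. Whether the 2 RNA libraries of a genotype are biological or technical repeats is not stated in the labels, and the deposited p-values carry that limit. No column of per-sample values remained outside the mapping (0 columns). Members, gene lists and rules were chosen with earlier results of these data known. Named were the 10 loci with most regions and the 10 densest with at least 3, called genes with a region, up to 3 members per gene list, the 5 longest loci without a region, the 5 loci with most regions on BG3C2 windows, the 5 widest regions, the 5 densest windows of 100 kb, and CG43444. Yp, roX and marker genes were added for the checks. Counting was checked against direct counts on the deposited regions and loci, and the intervals were tested on simulated counts. Software was Python 3.11.15, numpy 2.4.6, pandas 2.3.3, scipy 1.17.1 and matplotlib 3.10.9.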

Additional observations from a re-analysis of the deposited data

How the results depend on the processing

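Of 82 alternative values for 17 results, 49 stayed within the interval of the value reported (or within 1.5 times it, for counts, or at the same sign). The share of regions on loci, 73.2% by 1 bp, was 71.5% by midpoint and 71.5% with at least 50% of the region. It was 77.7% with loci extended by 1 kb and 67.5% with loci holding a gene at 1 FPKM or more. The X to autosome ratio of 1.62 was 1.81 for regions narrower than the median, 1.45 for wider ones and 1.74 for regions on no BG3C2 window. The pooled interior to end ratio of 0.93 was 0.75 in loci of at least 10 kb, 1.16 with 2 kb end windows and 1.08 for narrow regions, so its side of 1 depends on these choices; within 10 to 30 kb and 30 to 100 kb the ratio itself stayed below 1 under every alternative run, but its interval passed 1 for narrow regions (0.60 to 1.05 and 0.55 to 1.13) and, at 30 to 100 kb, with 0.5 kb end windows (0.52 to 1.01). The 55.4% of loci with a region in the longest group was 76.2% for the longest of 10 bins, 67.3% for genes with status OK, 51.3% without X and 41.0% for 1-gene loci, whose groups were cut anew. The density of the longest group over the rest, 2.43, was 2.02 with 10 bins, 2.14 with 1 bp overlap and 2.02 for genes with status OK. The ratio of loci over 1 FPKM to loci up to 1 FPKM, 1.57, turned to 0.81 for genes with status OK (interval 0.15 to 32.2), a filter that leaves 18 loci up to 1 FPKM, with 1 region. The 5 called genes with a region became 0 at q below 0.01, 25 at an unadjusted p below 0.05, 2 with at least 2 regions and 2 in 1-gene loci. With 50% overlap or by midpoint, 13.6% of regions lay on BG3C2 windows, 5.07% on Wds, 7.95% or 7.93% on DMAD, 7.63% on Pc and 5.42% on H3K4me3 peaks, or 3.14% on the upper 50% of H3K4me3 peaks by 1 bp. Leaving out overlapping loci removed none, because no loci overlap; 1-gene loci and, for positions, lists and medians, runs without X or in the longest group alone were chosen after seeing the data. Further FPKM cuts at 5 and 50 do not enter that ratio, which was 1.67 with the cut at 0.5. No paired analysis was possible because the 6mA list rests on 1 library per genotype and the RNA table gives 1 value per genotype, so that no replicate was left out either. Without depth, input or a value per region, weak gains and poorly covered sequence cannot be told from sequence without gain.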
